A study of Mus musculus with 2 samples.

Results

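The 10 genes described here are those of MHC class II and its peptide loading, by which a cell displays peptides to CD4 T cells: the classical chains H2-Aa, H2-Ab1 and H2-Eb1, the loading factors H2-DMa, H2-DMb1 and H2-DMb2, their inhibitors H2-Oa and H2-Ob, the invariant chain Cd74 and the transactivator Ciita. They were taken as probes whose platform annotation names exactly 1 gene symbol equal to a listed gene, with a value on both arrays. All 10 had such a probe, out of 14150 genes measured in this way, and 11 probes carried them because H2-Aa had 2. The set was put together because its values lay on the positive side of the ratio and farther out on the repeat array, so these values are given as a description, with no test.

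The cells were CD8+ T cells of the pmel transgenic mouse, which carries a T cell receptor specific for gp100, a protein of pigment cells, and they were grown in culture. Total RNA of pmel CD8+ cells after stimulation 1 (channel 1) and after stimulation 2 (channel 2) was hybridised together on each of 2 microarrays, array 2 being labelled a repeat of array 1. The transgene and culture are shared by both stages, no unstimulated cells were analysed here, and the labels give no mouse strain, age, agent or time, nor whether the repeat used fresh cells. Errors over the 2 arrays may therefore be technical.

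MHC class II molecules are pairs of an alpha and a beta chain that pick up peptides in endosomes. The invariant chain guides and plugs the new pair, H2-DM then swaps the remaining plug for a peptide, and H2-DO holds H2-DM back. Transcription of nearly all of these genes depends on CIITA, a coactivator that docks on factors bound to the X and Y boxes of their promoters; B cells, dendritic cells and macrophages are the usual sources of class II in the mouse.

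Each value is the log2 ratio of the 2 channels, with base 2 assumed. The labels do not say which stage is the numerator. Their order makes stimulation 1 over stimulation 2 likely, so that a positive value would mean more RNA after stimulation 1, and with the opposite order every sign turns. A ratio gives no level: it does not show how much class II RNA either stage held, and in bulk RNA a change in the number of cells of a type and a change of RNA per cell cannot be told apart. The SD over probes was 0.376 on array 1 and 0.453 on array 2, and 0.422 for the difference between the arrays.

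The promoters of these genes are shown because these genes are known for a common promoter layout, a feature that the choice of the set did not use. RefSeq promoter entries (GRCm38.p6, 250 bases before to 50 after the start site) matched 7 of the 10 genes, H2-DMa with 2 entries; Cd74, Ciita and H2-Ab1 were not matched. The letters TGATTGG, the core of the Y box bound by NF-Y, were searched on both strands, and so was AAC, part of the X box bound by the RFX complex, at 26 to 29 bases before it, counted from first base to first base. Both the letters and the spacing were chosen after these promoters had been read. A longer X box search, AAC followed after 2 bases by ATGATG, overlaps the first. The stretches that hold the pair follow on the gene's own strand, with AAC and TGATTGG in capitals.
H2-Oa (chr17:34092299-34092344, plus strand): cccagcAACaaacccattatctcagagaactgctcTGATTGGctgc
H2-Ob (chr17:34238814-34238856, plus strand): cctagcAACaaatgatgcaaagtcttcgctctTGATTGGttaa
H2-Aa (chr17:34287863-34287908, minus strand): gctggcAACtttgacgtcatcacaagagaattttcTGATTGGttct
H2-Eb1 (chr17:34305772-34305816, plus strand): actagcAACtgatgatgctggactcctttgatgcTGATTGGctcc
H2-DMb1 (chr17:34153093-34153138, plus strand): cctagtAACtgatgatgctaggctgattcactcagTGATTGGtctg
H2-DMb2 (chr17:34145122-34145167, plus strand): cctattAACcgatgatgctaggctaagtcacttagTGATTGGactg

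TGATTGG was present in the promoters of 6 of the 7 matched genes, against 7.82% of 32851 mouse promoters of the same length. The spaced pair was present in the same 6 genes and in 0.46% of all promoters. The longer X box letters were found in H2-DMb1, H2-DMb2, H2-Eb1 and H2-Ob and in 0.137% of all promoters. Neither H2-DMa entry held TGATTGG. Of 12 class I presentation genes with an entry, 5 held TGATTGG and 0 held the spaced pair. The letters and spacing were set on the class II promoters, so this 0 does not show that class I promoters lack X and Y boxes. The gap was 29 bases in H2-Oa, H2-Aa, H2-DMb1 and H2-DMb2, 28 in H2-Eb1 and 26 in H2-Ob. TGATTGG began between 45 bases (H2-Oa) and 92 bases (H2-DMb2) before the start site. The 6 genes with the pair ran from 0.49 (H2-DMb2) to 3.36 (H2-Oa) on array 2, and H2-DMa, the matched gene without it, read 2.70.

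**Figure D1:**
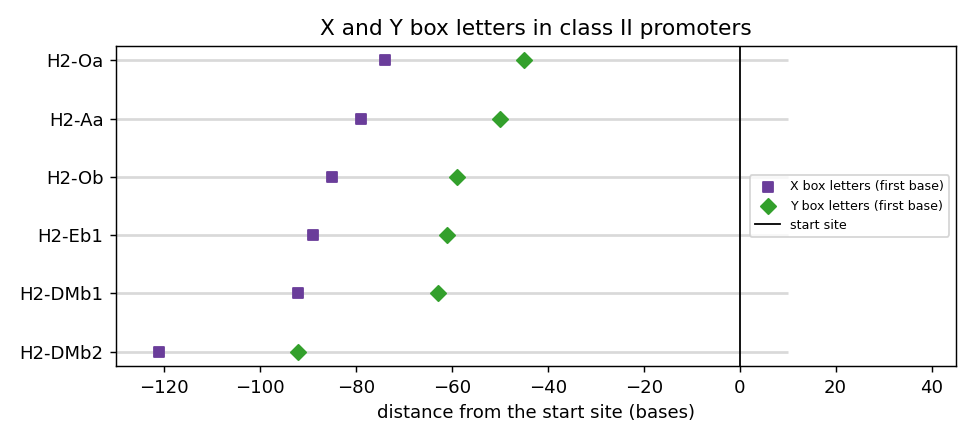
Distance in bases from the annotated start site (0) of the first base of the X box letters (squares) and of the Y box letters (diamonds) in the 6 class II promoters that hold both. The diamonds lie 45 to 92 bases before the start site and each square lies 26 to 29 bases farther out.

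All 10 genes read above 0 on both arrays, where 29.6% of all genes did and 33.6% read below 0 on both; the genes were picked for this side, so nothing is read from the count. The median over the 10 genes was 0.49 on array 1 and 2.02 on array 2, while the median of all genes was -0.02 and -0.01. At least 2-fold on the positive side were 1 of the 10 genes on array 1 and 8 on array 2, against 0.678% and 1.73% of all genes. H2-Oa alone was at least 2-fold on both arrays, as were 0.233% of all genes.

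The classical chains form the molecules that reach the cell surface. H2-Aa, the alpha chain of I-A, read 0.38 and 1.55 on arrays 1 and 2 with 1 probe, and 0.46 and 1.87 with the other. The probes of this gene were thus alike in both size and order of the arrays. H2-Ab1, the beta chain that pairs with it, read 0.30 on array 1 and 2.40 on array 2, a mean of 1.35 ± 1.48 (SD, n = 2). H2-Eb1, the beta chain of I-E, read 0.57 and 2.84, a mean of 1.71 ± 1.61 (SD, n = 2). For these 3 genes array 2 was the higher, and array 1 stayed below 2-fold; in fold terms H2-Eb1 stood at 1.48-fold on array 1 and 7.16-fold on array 2.

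The loading factor H2-DM is a dimer of an alpha chain from H2-DMa and a beta chain from H2-DMb1 or H2-DMb2. H2-DMa read 0.56 on array 1 and 2.70 on array 2, a mean of 1.63 ± 1.51 (SD, n = 2). H2-DMb1 read 0.68 and 1.01, a mean of 0.84 ± 0.23 (SD, n = 2). H2-DMb2 read 0.68 and 0.49, a mean of 0.58 ± 0.13 (SD, n = 2). The alpha chain gene thus lay above both beta chain genes on array 2 and below them on array 1. H2-DMb2 was the only gene of the set with the lower value on array 2. H2-DMb1 and H2-DMb2 are close copies of each other, and how far their probes tell them apart was not tested.

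H2-DO, the brake on H2-DM, is found mainly in B cells and some dendritic cells. H2-Oa, its alpha chain, read 1.90 on array 1 and 3.36 on array 2, a mean of 2.63 ± 1.03 (SD, n = 2), or 3.73-fold and 10.3-fold. It held place 7 from the top among all genes on array 1 and place 2 on array 2. H2-Ob, its beta chain, read 0.33 and 1.69, a mean of 1.01 ± 0.96 (SD, n = 2). The alpha chain gene was the higher of the pair on both arrays, and the values of H2-Oa and H2-Ob did not overlap.

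Cd74, the invariant chain, differed between the arrays more than most of the set. It read 0.06 on array 1, a 1.04-fold ratio, and 2.32 on array 2, a 4.99-fold ratio, with a mean of 1.19 ± 1.60 (SD, n = 2). On array 1 it lay above 59.3% of all genes, and on array 2 at place 17 from the top. Ciita, the coactivator that switches class II genes on, read 0.02 and 0.09, a mean of 0.06 ± 0.05 (SD, n = 2). It was the gene of the set closest to 0 on both arrays, above 54.4% of all genes on array 1 and 63.1% on array 2. Its 1 probe does not show whether Ciita RNA was measurable in either stage.

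**Figure D2:**
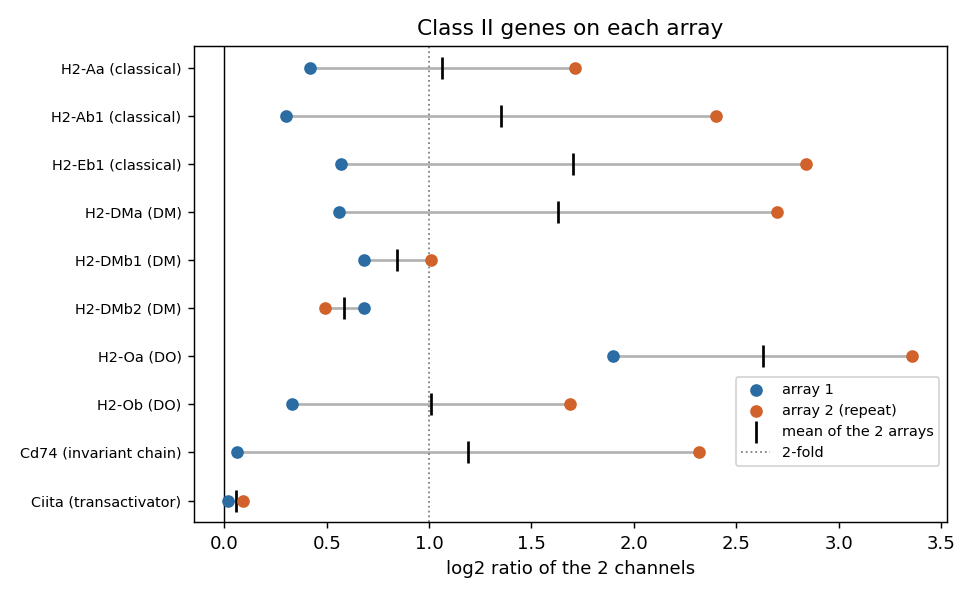
Log2 ratio (horizontal axis) of each class II gene on array 1 (blue) and on the repeat array 2 (orange), with the mean as a black tick and 2-fold as a dotted line; H2-Aa is the mean of its 2 probes. Array 2 lies to the right of array 1 for 9 of the 10 genes, from a gap of 0.07 for Ciita to 2.27 for H2-Eb1, and to the left for H2-DMb2.

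In order of their means the genes ran H2-Oa, H2-Eb1, H2-DMa, H2-Ab1, Cd74, H2-Aa, H2-Ob, H2-DMb1, H2-DMb2 and Ciita. From H2-Oa down to H2-DMb1 the distance from each gene to the next was smaller than the SD of either. These SDs hold the gap between the arrays that most of the genes share, so they do not show whether neighbours differ within an array. H2-Oa was above H2-Eb1 on both, with 1.90 against 0.57 on array 1 and 3.36 against 2.84 on array 2. H2-DMb1 and H2-DMb2 had the same value, 0.68, on array 1.

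Most of the genes had in common a wide gap between the arrays. Array 2 was higher for 9 of the 10 genes, and for 47.9% of all genes. The gap was 1 or more for 7 of the 10 genes, a size met by 191 of the 14150 genes (1.35%). These 7 were H2-Aa, H2-Ab1, H2-Eb1, H2-DMa, H2-Oa, H2-Ob and Cd74, with gaps of 1.29 to 2.27. By this gap H2-Eb1 held place 5 from the top of the whole table, and Cd74, H2-DMa and H2-Ab1 held places 6, 8 and 10. The set was picked partly for being farther out on array 2, so nothing is read from these counts and places. With both arrays brought to the same SD, Cd74 read 0.07 and 2.12 and H2-Eb1 0.63 and 2.60. Whether array 1 or array 2 is nearer to the usual difference between the stages cannot be told from 2 arrays.

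**Figure D3:**
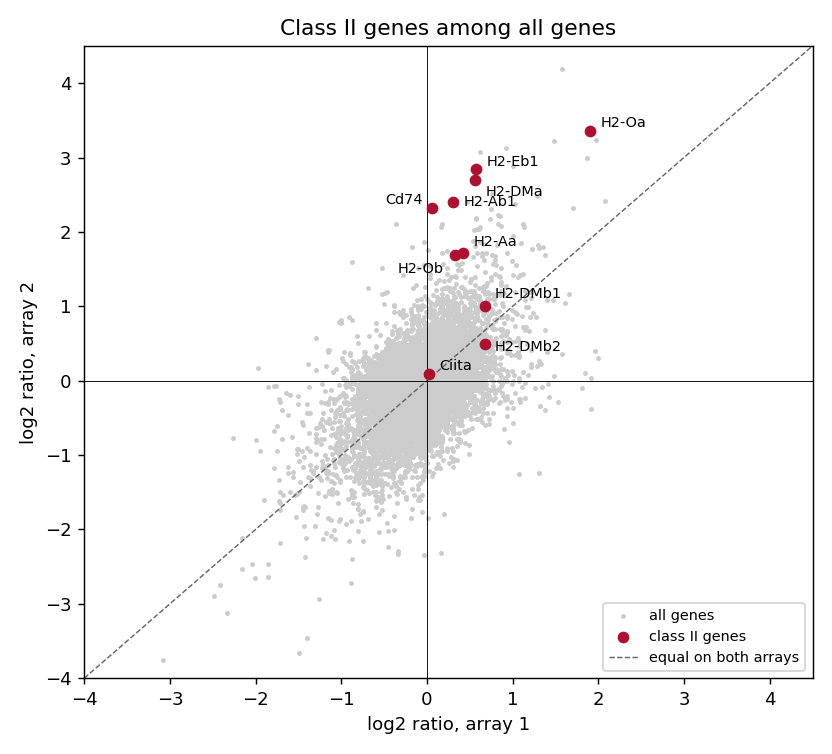
Log2 ratio on array 1 (horizontal) against array 2 (vertical) for 14150 genes (grey) and the 10 class II genes (red), with the dashed line where the arrays are equal. The class II genes other than H2-DMb1, H2-DMb2 and Ciita lie far above the line, between 1.69 and 3.36 on array 2.

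Probes with neighbouring numbers were read as a comparison within the probe list. The 20 other probes next in number to a class II probe had a median of 0.04 on array 1 and -0.09 on array 2. On array 2 they ran from -0.67 to 0.84, below 8 of the 10 class II genes. Since the class II genes were picked for high values on this array, nothing is read from that order. The part of spot quality in the class II values was not tested, since intensities were not used here.

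The rule did not use the place of the genes in the genome, though it did use the ratios compared here. By the RefSeq gene table (GRCm38.p6), 8 of the 10 genes lie on chromosome 17, Ciita on chromosome 16 and Cd74 on chromosome 18. From H2-Oa to H2-Eb1 the class II genes are interrupted by Brd2, a chromatin reader, and by Psmb9, Tap1, Psmb8 and Tap2, which serve class I presentation. Brd2 read 0.05 and 0.41 on arrays 1 and 2. Psmb9, an immunoproteasome subunit, read 0.08 and 0.81, and Tap2, a chain of the peptide transporter, 0.08 and 0.66. Tap1, its partner chain, read -0.44 and 0.03 and Psmb8, another immunoproteasome subunit, -0.14 and 0.33. All 5 were below 2-fold on both arrays, with medians of 0.05 and 0.41, below the array 2 values of the class II genes on either side other than H2-DMb2. The class II genes were picked for high values on array 2, so nothing is read from this difference.

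Beyond H2-Eb1 lie other class II genes that are not in the set. H2-Ea, listed by RefSeq as a transcribed pseudogene in its C57BL/6J assembly, read 0.38 and -0.04. H2-Eb2, a relative of H2-Eb1, read 0.40 and 0.15 with 1 probe and -0.23 and 0.31 with the other. On array 2 these 3 probes lay between -0.04 and 0.31, below the 2.84 of H2-Eb1, while on array 1 H2-Ea and 1 H2-Eb2 probe were close to its 0.57. No test of the difference was made, because H2-Eb1 belongs to the set chosen by these values.

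**Figure D4:**
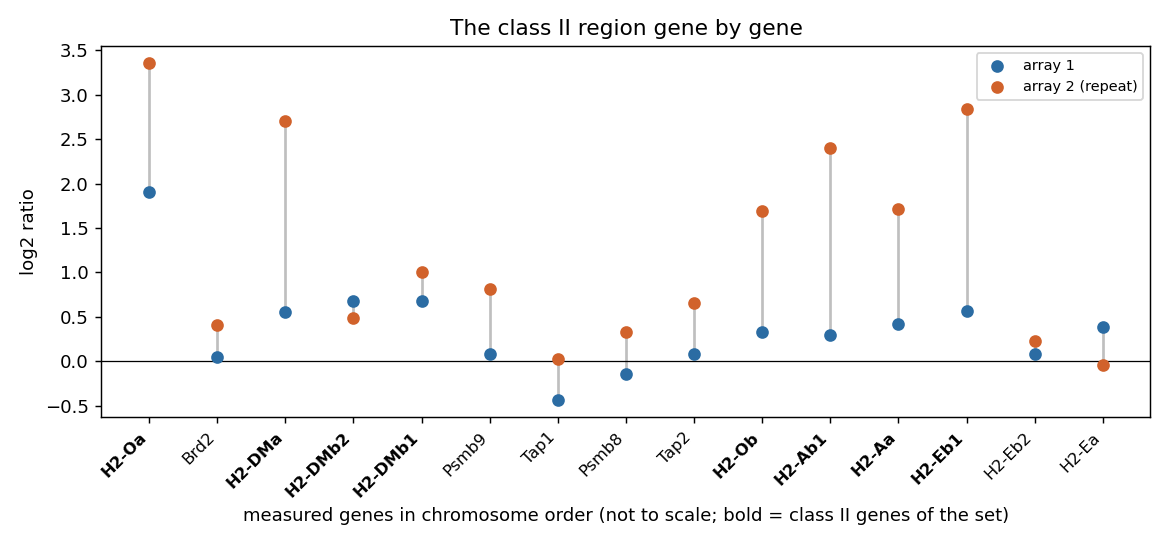
Log2 ratio (vertical axis) on array 1 (blue) and array 2 (orange) for the measured genes from H2-Oa to H2-Ea in chromosome order, with equal spacing in place of distance and the class II genes of the set in bold. On array 2 the 5 genes in between (Brd2, Psmb9, Tap1, Psmb8, Tap2) sit between 0.03 and 0.81, while the bold genes other than H2-DMb2 sit at 1.01 or more. The bold genes were picked for their values on these arrays.

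Factors that act on class II promoters were read next. Of 15 listed genes of the X and Y box complexes and of the interferon gamma route to Ciita, 13 had values, 6 positive on both arrays and 3 negative, against 29.6% and 33.6% of all genes, and the list medians were 0 on array 1 and 0.23 on array 2. Rfx5, the subunit of the RFX complex that binds DNA, read -0.41 and 0.23. Irf1, a factor that interferon gamma uses to switch on Ciita, read 0.37 and 0.67. The gene farthest on the negative side was Irf8, an interferon regulatory factor of B and myeloid cells, with -0.60 and -1.60. At least 2-fold positive on array 2 were Rfxank, another RFX subunit, with -0.02 and 1.14, and Jak2, a kinase of the interferon gamma receptor, with 0.29 and 1.06. Irf8, Rfxank and Jak2 are named because of their values.

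Of 14 listed genes that cut, sort or remove class II and its antigens in endosomes, 12 had values. On both arrays 3 were positive and 6 negative, against 29.6% and 33.6% of all genes, and the list medians were -0.17 and -0.22. Both genes of this list that were at least 2-fold on both arrays were cathepsins on the positive side. Ctss, the protease that cleaves the invariant chain in antigen presenting cells, read 1.10 and 1.85, a mean of 1.48 ± 0.53 (SD, n = 2). Ctsl, which does so in thymic epithelium, read 1.40 and 1.08, a mean of 1.24 ± 0.23 (SD, n = 2). On the negative side were Ifi30, the endosomal thiol reductase GILT, with -0.71 and -1.24, and Marchf8, a ubiquitin ligase of the family that removes class II from the surface, with -0.78 and -1.79. Marchf8 is named because of its value. The processing genes thus fell on both sides of 0, Ctss and Ctsl beside the class II genes and Ifi30 opposite to them.

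Class I presentation genes served as the nearest comparison. Of 14 listed genes 12 had values, 4 positive on both arrays and 5 negative, against 29.6% and 33.6% of all genes. The list median was -0.25 on array 1 and 0.08 on array 2. B2m, the light chain of class I, read 0.12 and 0.54, and the heavy chain H2-K1 -0.30 and -0.12. None was at least 2-fold on either array on the positive side. The class II genes had medians of 0.49 and 2.02 on the same arrays; no test of the difference was made, because the class II genes were chosen by these values.

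Markers of cells that normally carry class II were read on the same arrays. Of 19 listed B cell markers other than class II, 17 had values. Of these, 11 were positive on both arrays and 2 negative, against 29.6% and 33.6% of all genes. The list medians were 0.21 and 0.32, and 0.11 and 0.32 without the immunoglobulin genes Ighm and Igkc. Cd79a and Cd79b, the signalling chains of the B cell receptor, read 0.31 and 1.06, and 0.67 and 1.62. Cd72, a B cell surface receptor named because of its value, read 0.57 and 2.19. Of 4 probes of Ighm, the constant region of IgM, 1 read 2.32 and 1.97, the farthest B cell probe on this side on array 1, another 0.91 and 1.14, and the others 0.33 and 0.27, and 0.43 and 0.41. Ighm is named because of its values. Ms4a1, the gene of CD20, stayed near 0 with 0.11 and 0.08. The B cell list ran from -0.19 to 2.19 on array 2, where 3 of its 17 genes were at least 2-fold positive, against 1.73% of all genes. Averaged over its 4 probes, Ighm read 0.95 on array 2 and was not among the 3. The class II genes, 8 of 10 at this size, were picked for high values on array 2, so the counts are not compared. The part of B cell RNA in the class II values was not tested.

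For macrophages and dendritic cells, 15 of 20 listed markers had values. Of these, 6 were positive on both arrays and 6 negative, against 29.6% and 33.6% of all genes. The list medians were -0.08 and 0.14. Itgax, the integrin chain CD11c of dendritic cells, read -0.71 and -0.03, negative on array 1 and close to 0 on array 2. Also negative on both arrays were Cd14 with -0.55 and -0.20, Xcr1 with -0.42 and -0.16, and Zbtb46 with -0.32 and -0.23. Batf3 read -0.08 and -0.14, and Itgam -0.04 and -0.37. Positive on both arrays were, among others, Clec4a2, a lectin receptor, with 0.68 and 0.48, Cx3cr1, a chemokine receptor, with 0.34 and 0.34, and Ccl22, a chemokine, with 0.02 and 0.71. Fcgr1, a high-affinity Fc receptor, read 0.24 and 1.43 and was the only marker of this list at least 2-fold positive on array 2. Csf1r had no pair of values. Of this list, all genes named here other than Itgax and Csf1r are named because of their values. The part of macrophage and dendritic cell RNA was not tested. Among T cell genes, Cd3e read -0.09 and 0.45 and the Cd8a probes 0.03 and 0.74, and 0.71 and 1.06; the list had medians of 0.13 and 0.45. Array 2 was the higher for 8 of 9 measured T cell genes and 11 of 12 class I genes. It was so for 12 of 17 B cell markers, 9 of 15 macrophage and dendritic cell markers and 7 of 13 genes of the promoter factor list. The counts were 5 of 7 for CD4 T cell markers, 3 of 5 for costimulatory genes and 4 of 12 for processing genes, against 47.9% of all genes. The median gap was 0.53 for T cell genes, 0.445 for class I genes, 0.31 for B cell markers and 0.26 for macrophage and dendritic cell markers. It was 0.13 for CD4 T cell markers, 0.03 for costimulatory genes, 0.015 for the promoter factor list and -0.145 for processing genes. For the class II genes, picked partly for this gap, it was 1.41. Ratios cannot show whether the cells held these markers at all.

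**Figure D5:**
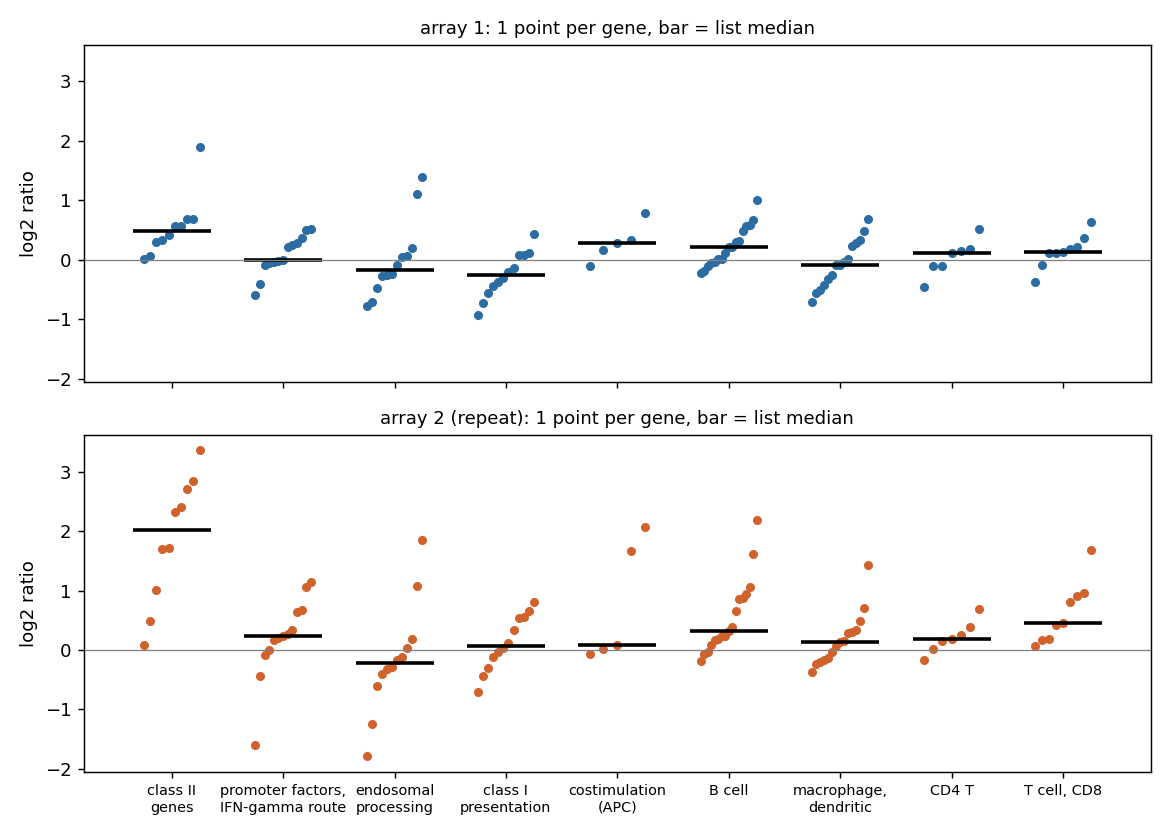
Log2 ratio (vertical axis) of each measured gene, 1 point per gene, by list on array 1 (upper panel) and array 2 (lower panel), with the list median as a bar. The class II genes, which were picked for this side on these arrays, have the highest median in both panels, 0.49 and 2.02. The list of costimulation genes is next on array 1 (0.29) and the T cell list next on array 2 (0.45).

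limma's moderated test was run across all 21427 probes and read only for the genes outside the class II set. It called 0 probes of any of these lists at an adjusted p of 0.05 and 0 of all probes (0%), with 14.9% of all probes at an unadjusted p under 0.05. Unadjusted, 4 of 14 probes of the promoter factor list passed on the positive and 2 on the negative side. Of the 12 processing probes 2 and 2 passed, and of the 12 class I probes 0 and 3. For the B cell list it was 8 and 0 of 21 probes. The macrophage and dendritic cell list had 1 and 0 of 16, and the T cell list 2 and 0 of 11. The Creb1 probes passed on opposite sides, 1 with 0.97 and 0.90 and the other with -0.47 and -0.37. The count of 0 rests on 248 probes with equal values on the 2 arrays, in a table given to 2 decimals: without them 1749 probes passed, 20 of them in these lists, and with the arrays brought to the same SD 898 and 14. The 14 were Ctss, Ctsl, Cd79b, Cd72, Cd5, Cd86, 1 Creb1 probe, 1 Cd8a probe and 2 Ighm probes on the positive side and Irf8, Ifi30, Marchf8 and Erap1 on the negative side, and all 14 were also among the 20. No gene of these lists is therefore given here as a called change.

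Genes of like pattern were ranked by the distance between their pair of values and that of a class II gene, over 2 arrays. Nearest to H2-Oa (1.90 and 3.36) were Dapl1 with 1.97 and 3.24, at a distance of 0.139, Slamf6, a lymphocyte surface receptor, with 1.87 and 3, Smpdl3a with 1.48 and 3.22, Il7r, the IL-7 receptor chain, with 1.58 and 4.19, and Id3, an inhibitor of E proteins, with 2.08 and 2.41. Nearest to the median pair of the set (0.49 and 2.02) were Rtl8c with 0.55 and 2.03, Gbp2b, an interferon-induced GTPase, with 0.58 and 2.04, Ptger3, a prostaglandin E receptor, with 0.61 and 2.04, Pde4b, a phosphodiesterase of cyclic AMP, with 0.62 and 2.06, and Gtf2i with 0.54 and 1.88. With 2 arrays many genes share a pair by position alone, and 212 of the 14150 genes (1.5%) were under 2-fold on array 1 and at least 2-fold positive on array 2, as were 7 of the 10 class II genes. The class II genes were picked for values of this kind, so nothing is read from that count.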

How the data were processed

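The authors' deposited table gives 1 signed log ratio per probe and array, used as log2 with base 2 assumed; scanner, background correction, normalization and filters are not given in the sources used here, and neither are the ratio's direction and the dyes. Column medians are 0.01 and 0.02. Of 21919 probes, 21427 had both values; the 2 columns are not copies, since 248 probes were equal. Array data hold no read depth, so precision is limited by having 2 arrays.

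Gene symbols came from the annotation of the array platform, and the probes of a gene were averaged. limma 3.58.1 in R 4.3.3 fitted the mean over both arrays against 0 (two-sided, Benjamini-Hochberg). Named were all class II genes, list genes with every probe at least 2-fold on both arrays, a fixed set of genes, and the 5 genes nearest in value to H2-Oa and to the set's median. Beyond this rule, genes of the class II region and the 5 costimulatory genes are named. So are list genes that passed limma's test in any setting or with opposite probes, and genes that turned sign on single arrays. Others are marked. The set, the lists and the naming rule were chosen with earlier results of these data known. Alternatives were centring, quantile normalization, equal SDs, other rules for probes and size, a robust prior, probes with 1 value, 1 value per gene, each array alone and, added after seeing the data, leaving out the equal probes.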

Additional observations from a re-analysis of the deposited data

How the results depend on the processing

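The median over the class II genes was 1.13 as deposited and ranged from 0.49 (array 1, without replicate 2) to 2.02 (array 2, without replicate 1), so its size depends on the array. The count at least 2-fold positive on both arrays was 1, with 2 at 1.5-fold, and ranged from 1 to 8 on single arrays (8 without replicate 1). Median centring, quantile normalization, equal SDs and other rules for H2-Aa's probes changed neither the count of 10 positive on both arrays nor the 2-fold count by more than 1.5 times, and no class II gene changed sign. limma's count of 0 probes became 898 with equal SDs (14 in the lists) and 1749 without the equal probes (20 in the lists). These equal probes enter the spread model as zero variances, and its prior degrees of freedom rose from 3.43 to 7.59 with equal SDs and to no finite value without them. Centring, quantile normalization, a robust prior, probes with 1 value and 1 value per gene kept a count of 0 over all probes or genes. On single arrays these values turned sign, and the cause was not tested: the class I median (-0.06) was -0.25 on array 1 and 0.075 on array 2, and the macrophage and dendritic cell median (-0.06) was -0.08 and 0.14. Single genes that turned, with arrays 1 and 2 in that order, were Rfx5 (-0.41, 0.23), Cd4 (-0.11, 0.02), Cd3e (-0.09, 0.45), Rfxank (-0.02, 1.14), Rfxap (-0.08, 0.33), Tap1 (-0.44, 0.03), Psmb8 (-0.14, 0.33) and H2-Ea (0.38, -0.04). No paired analysis was possible because the arrays form 1 group, which shares no replicate numbers with another; each log ratio is already a difference within an array.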

Other observations

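Costimulatory genes of antigen presenting cells divided into those near 0 and those high on array 2. Of 5 listed genes, 4 were positive on both arrays, against 29.6% of all genes. The medians were 0.29 on array 1 and 0.08 on array 2. Cd86, a ligand of CD28, read 0.79 and 1.67, while Cd80, the other such ligand, read -0.10 and -0.07. Cd83, a surface protein of mature dendritic cells and activated lymphocytes, read 0.16 and 2.06, where Cd74 read 0.06 and 2.32. Cd40 and Icosl read 0.29 and 0.08, and 0.34 and 0.02. limma called 0 of these probes at an adjusted p of 0.05. An unadjusted p under 0.05 was met by 1 of the 5, against 14.9% of all probes. At an adjusted p of 0.05 Cd86 passed with the arrays at equal SDs, and Cd83 and Cd86 passed without the equal probes. Of 7 markers of CD4 T cells, 3 were positive on both arrays and 0 negative, against 29.6% and 33.6% of all genes. Cd4 itself read -0.11 and 0.02. For these 7 probes limma's count was 0 at an adjusted p of 0.05 and 0 at an unadjusted p under 0.05. Over all probes these shares were 0% and 14.9%.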
